A study of Mus musculus with 74 samples.

Results

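The genes described here encode chromatin regulators and histones: 88 of the 8976 probes on the arrays, for 69 genes, of which 16 have more than 1 probe. A probe was included when the platform gave it a single symbol (7348 probes have one) and the symbol belongs to a family of histone deacetylases and sirtuins, histone demethylases, methyltransferases or acetyltransferases, chromatin remodellers, bromodomain or chromodomain proteins, DNA methyltransferases, methyl-CpG binding proteins, high mobility group proteins or histones. Arid5b was left out. All 88 probes match a RefSeq gene by gene ID, and no probe for Sin3 or Ncor genes was among them. The largest group is the remodellers with 23 probes for 18 genes, followed by methyltransferases with 18 for 12 genes, deacetylases and sirtuins with 12 for 10, demethylases with 10 for 8, readers with 7 for 5, acetyltransferases with 6 for 6, DNA methylation proteins with 6 for 4, histones with 4 for 4 and high mobility group proteins with 2 for 2. All groups were drawn by symbol, and whether each member has the activity its group is named for was not checked. The methyltransferase group, for one, includes Setbp1, which is not known as an enzyme of that kind.

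The 74 arrays each compared RNA of mouse cells given TGF-β with RNA of cells of the same line left without it, in the 2 channels of an array. Wild-type lines are labelled S2WT and S3WT, the knockout lines S2KO and S3KO, and a further set of arrays U0126. In the published study that fits this design, S2 and S3 stand for Smad2 and Smad3, WT for wild type and KO for knockout. U0126 is an inhibitor of the kinase MEK. The titles of those arrays set S2WT against U0126, whereas the channel labels, used here, put both names on either channel and differ by TGF-β alone. Read so, the U0126 arrays are of S2WT cells given the inhibitor, not of a separate cell line. For brevity U0126 is counted as a line below. Averages over lines and the 0 h pool therefore hold S2WT cells with and without U0126 as separate lines. There were 3 arrays per line at each of 0, 0.3, 1, 2 and 4 h, except S3KO at 1 h, which has 2. At 0 h neither channel had TGF-β, so these arrays give the background ratio of a probe. The labels give no tissue, no age, no dose of TGF-β or U0126, and nothing on how the lines were derived or whether replicates were separate cultures, so p-values reflect array-to-array spread that could be technical.

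TGF-β binds a pair of receptor kinases that phosphorylate Smad2 and Smad3, which enter the nucleus with Smad4 and recruit histone acetyltransferases or deacetylase-containing corepressors to target genes. Deacetylases remove acetyl groups from histone tails, remodelling ATPases move nucleosomes, methyltransferases and demethylases set and erase methyl marks, and bromodomain and chromodomain proteins read these marks. The arrays measured transcripts of the regulators themselves, not histone marks or binding.

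Values are log2 ratios, centred on the median of each array, likely of channel 2 (TGF-β) over channel 1. The direction is not stated in the labels; it was taken from the 11 probes for genes known to be induced by TGF-β, of which limma called 5 higher in S2WT and 4 in S3WT against pooled 0 h arrays. Before centring, the array medians ran from -0.595 to 0.215. The S3KO array at 1 h of replicate 2 had a correlation of -0.379 over probes with the 0 h means of the other lines, the lowest of all arrays. The S3KO 0 h arrays of replicates 1 and 2 followed at -0.156 and -0.101, and no other array was below 0. These 2 belong to the background of S3KO and to the 0 h pool. The arrays labelled S2WT at 4 h carry 2 h in a source label, and those labelled S3KO at 0.3 h name no TGF-β in either channel. A ratio within a line gives no level, so neither the knockouts nor the cell type could be checked. Of the chromatin probes, 23 were measured on every array, and the median residual SD between arrays of a group was 0.525 over them and 0.585 over all probes.

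The chromatin genes as a group showed small differences. In bulk RNA, less transcript per cell and fewer cells of a type cannot be told apart. The late response, the mean of the 1, 2 and 4 h groups minus the 0 h mean, averaged over the lines, had a median of -0.02 on the log2 scale over 63 tested chromatin probes and 0.00 over all 6531 probes tested. The median size of these differences was 0.10 for chromatin probes and 0.11 for all probes. A moderated t test from limma, adjusted by Benjamini-Hochberg over all probes tested, called 0 of the 63, against 1.07% of all probes, and 8 of the 63 had an unadjusted p under 0.05 (12.7%, against 10.5% of all). Against the own 0 h arrays of a line, it called 1 of 81 in S2KO, higher (0.515% of all probes called, 0.393% higher) and 0 in the other lines. In those lines the share of all probes called was 0.192% in S2WT, 0.12% in S3WT, 1.53% in S3KO and 0.0719% in U0126. An unadjusted p under 0.05 was seen for 7 of 83 chromatin probes in S2WT (8.43%, against 7.8% of all probes) and 2 of 82 in S3WT (2.44%, against 5.47%). It was seen for 5 of 81 in S2KO (6.17%, against 8.22%), 13 of 67 in S3KO (19.4%, against 10.8%) and 5 of 81 in U0126 (6.17%, against 6.35%). The S3KO values rest on 0 h arrays of which 2 stand apart, as given above.

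The 0 h arrays of all lines can be pooled as one background. Pooling lowers the error of a difference but assumes that the lines share this background. Where they do not, the difference in background stays in the result. Against this pool 1 of 75 chromatin probes was called lower in S2WT (1.27% of all probes called, 0.424% lower) and 1 of 75 higher in S2KO (2.49%, 1.91% higher). In the other lines limma called 0, where 0.146% of all probes were called in S3WT, 0.0141% in S3KO and 0.782% in U0126. An unadjusted p under 0.05 was seen there for 7 of 75 in S3WT (9.33%, against 8.41% of all probes), 5 of 66 in S3KO (7.58%, against 5.17%) and 11 of 75 in U0126 (14.7%, against 10.6%). In the lines with a call the shares were below those of all probes. They were 8 of 75 in S2WT (10.7%, against 12.3%) and 4 of 75 in S2KO (5.33%, against 14.9%). At 0.3 h, averaged over the 4 lines other than S3KO, limma called 0 of 72 chromatin probes and 0% of all probes. An unadjusted p under 0.05 was seen for 2 of the 72 (2.78%, against 4.33% of all).

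**Figure D1:**
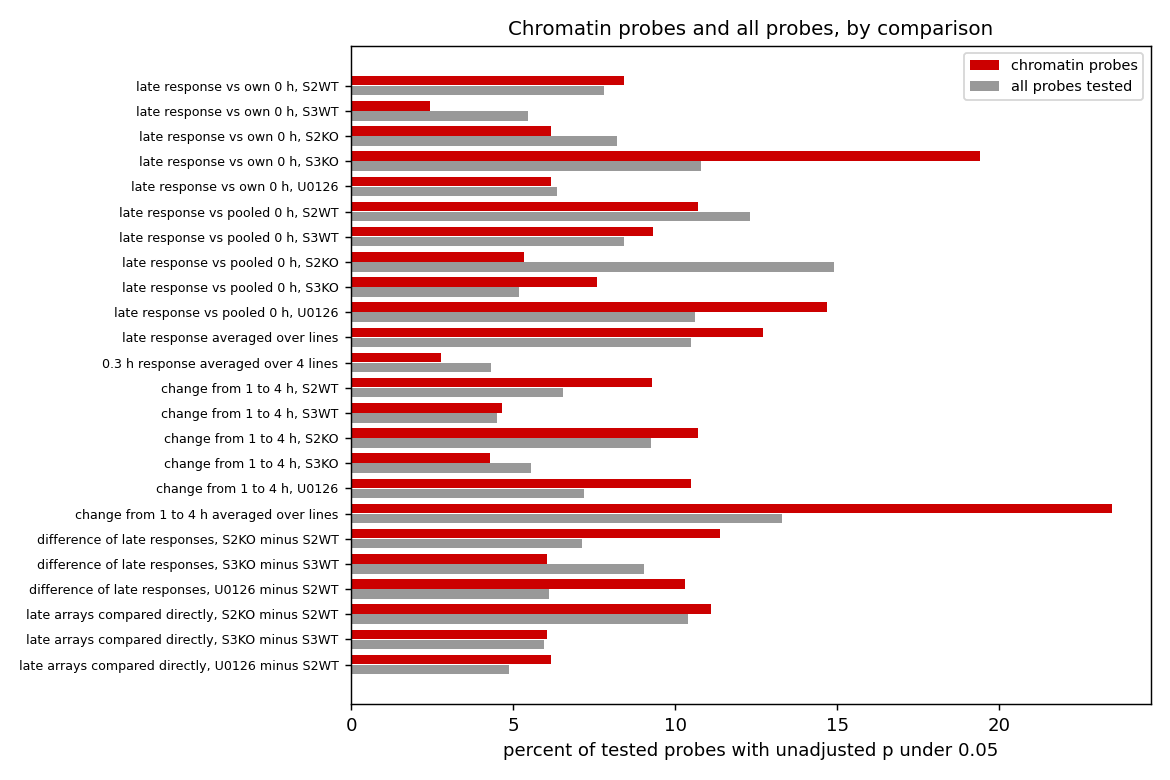
Percent of tested probes with an unadjusted p under 0.05 in each of the 24 comparisons (x axis, percent), for chromatin probes (red bars) and all probes tested (grey bars). The highest share of chromatin probes is 23.5% for the change from 1 to 4 h averaged over lines, where all probes stand at 13.3%, and the lowest is 2.44% for S3WT against its own 0 h arrays.

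Most calls of chromatin probes were in the change from 1 to 4 h, mainly averaged over the lines. In that average the share of all probes called was also the highest of the comparisons. Comparing 4 h with 1 h uses treated arrays on both sides and no 0 h array. The 1 h arrays include S3KO replicate 2, with the lowest correlation given above, and U0126 replicate 1, at 0.0564. The 4 h arrays include those of S2WT that carry 2 h in a source label. In S2KO, limma called 3 of 84 chromatin probes lower and 0 higher, against 0.753% of all probes called (0.294% lower). Of the 84 estimates, 28 were positive. In the other lines limma called 0, where 0.0231% of all probes were called in S2WT, 0.0576% in S3WT, 0.19% in S3KO and 0.139% in U0126. Unadjusted p values under 0.05 were seen for 8 of 86 in S2WT (9.3%, against 6.54% of all probes) and 4 of 86 in S3WT (4.65%, against 4.51%). They were seen for 9 of 84 in S2KO (10.7%, against 9.25%), 3 of 70 in S3KO (4.29%, against 5.56%) and 9 of 86 in U0126 (10.5%, against 7.19%). Averaged over the 5 lines, a comparison added after the data were seen, limma called 4 of 68 chromatin probes lower and 1 higher. Of all probes, 2.54% were called (0.91% lower and 1.63% higher). The 4 called lower are for Hmgn3, Hdac5, Smarca2 and Cbx7, and the 1 called higher is for Smarca4. Of the 68 estimates, 29 were positive. Differences between lines in this change were not tested. The 3 S2KO calls were lost with scaled arrays (-2.24 for Chd6, -0.73 for Hdac5 and -0.59 for Hmgn3) or when S2KO arrays alone were fitted, and those of Hdac5 (-0.64, adjusted p = 0.196) and Hmgn3 (-0.48, adjusted p = 0.216) also with uncentred arrays.

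**Figure D2:**
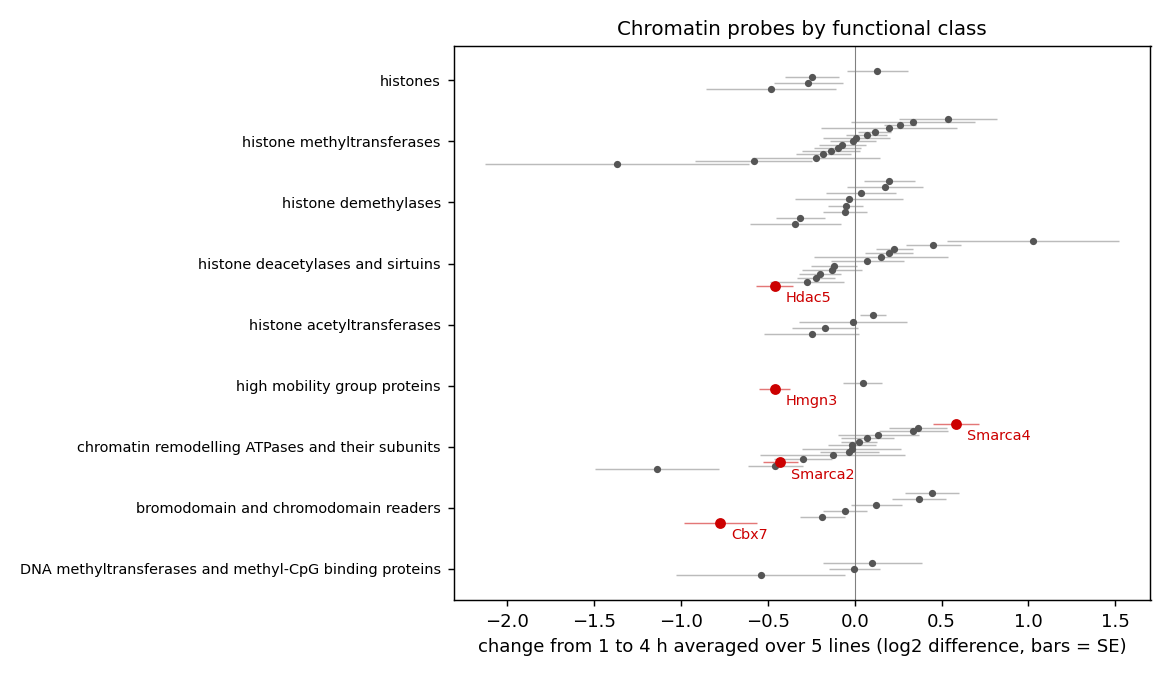
Change from 1 to 4 h averaged over 5 lines (x axis, log2 difference, bars are SE) for each tested chromatin probe, set out by functional class; red points passed the adjusted threshold of 0.05 and are named. The 5 called probes lie in 4 classes, and most other points lie within 0.5 of 0.

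Among the deacetylases, Hdac4, Hdac5 and Sirt1 carried the calls. Hdac4 and Hdac5 are class IIa deacetylases that shuttle between cytoplasm and nucleus, and Sirt1 is an NAD-dependent deacetylase. Their promoters are shown because Hdac4 was called higher and Hdac5 and Sirt1 lower. The sequences are from RefSeq (GRCm38.p6), from 250 bases before to 50 after the gene start, on the strand of the gene. Capitals mark matches to CAGAC, the Smad half-site, or GGCGC, a GC-rich motif also bound by Smads, on either strand.

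Hdac4, chr1:92180292-92180591, minus strand: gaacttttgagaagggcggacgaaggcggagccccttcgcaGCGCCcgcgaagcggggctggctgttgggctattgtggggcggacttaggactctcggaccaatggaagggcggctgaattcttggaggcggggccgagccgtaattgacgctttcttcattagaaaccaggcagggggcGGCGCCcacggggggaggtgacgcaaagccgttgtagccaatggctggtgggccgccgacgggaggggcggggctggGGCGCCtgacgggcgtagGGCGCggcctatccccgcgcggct
Hdac5, chr11:102230123-102230422, minus strand: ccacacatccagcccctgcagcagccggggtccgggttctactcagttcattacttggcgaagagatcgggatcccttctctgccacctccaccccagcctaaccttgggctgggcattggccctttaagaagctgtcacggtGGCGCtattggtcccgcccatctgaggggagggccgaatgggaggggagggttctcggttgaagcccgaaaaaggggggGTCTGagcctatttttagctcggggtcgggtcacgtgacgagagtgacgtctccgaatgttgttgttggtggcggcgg
Sirt1, chr10:63338986-63339285, minus strand: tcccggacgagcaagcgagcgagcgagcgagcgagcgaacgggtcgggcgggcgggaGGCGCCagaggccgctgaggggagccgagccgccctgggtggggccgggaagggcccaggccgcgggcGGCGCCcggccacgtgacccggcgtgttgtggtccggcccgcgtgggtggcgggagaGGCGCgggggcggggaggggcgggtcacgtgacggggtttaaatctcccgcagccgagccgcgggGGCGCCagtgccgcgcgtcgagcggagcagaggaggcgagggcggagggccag

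CAGAC had 1 match in the Hdac5 window and 0 in those of Hdac4 and Sirt1. GGCGC had 6 matches for Hdac4, 1 for Hdac5 and 7 for Sirt1, where GGCGCC counts on both strands. The E-box CACGTG, bound by Myc-type factors, had 1 match for Hdac5, 2 for Sirt1 and 0 for Hdac4, and the AP-1 motif TGANTCA had 0 in all 3. Over all 32851 promoters of the table, 49.6% hold CAGAC, 36.9% GGCGC, 7.15% CACGTG and 7.81% TGANTCA. Among 79 promoters of 52 of the chromatin genes, the shares were 41.8%, 77.2%, 8.86% and 7.59%. A match describes the letters only.

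Hdac4 was highest in S2KO. Its 3 arrays there read 1.495, 0.33 and 1.46 at 2 h and 0.85, 0.65 and 1.01 at 4 h, after 0.62, 0.06 and -0.05 at 1 h. The S2KO 0 h arrays read -0.06, 0.18 and 0.36, so the 4 h arrays all lie above them. Against the pooled 0 h arrays Hdac4 rose by 0.79 ± 0.18 (SE, 9 late arrays; adjusted p = 0.00583), and all 9 late arrays lay above the pooled mean. Against the 3 own 0 h arrays the difference was 0.55 (adjusted p = 0.63). The pooled mean is low in part through S3KO at 0 h, where Hdac4 read 0.75 and -1.99; without the S3KO 0 h arrays the rise was 0.66 (adjusted p = 0.0496). The call was lost with arrays left uncentred (0.69, adjusted p = 0.0566) or scaled to a common spread (0.61, adjusted p = 0.121).

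The other lines gave lower values of Hdac4 in the same direction. The differences from the pooled 0 h arrays were 0.42 in U0126, 0.38 in S3WT, 0.21 in S2WT and 0.19 in S3KO, and none was called. The mean over lines was 0.40 ± 0.13 (adjusted p = 0.168), and 40 of 44 late arrays lay above the 0 h mean over lines. At 4 h, the arrays read 0.58, 0.22 and 0.43 in S2WT, 0.58, 0.68 and 0.49 in S3WT, 0.34, 0.51 and -0.02 in S3KO and 0.40, 0.51 and 0.45 in U0126. Of these 12 values, 11 lie above 0. The late arrays of S2KO and S2WT, compared directly, differed by 0.58 (adjusted p = 0.229).

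Hdac5, by its probe 2876, had its lowest group mean at 4 h in every line except S3KO, and its highest at 1 h in S2WT and S2KO. It read 0.61, 0.37 and 0.88 at 1 h in S2WT and -0.35, -0.29 and -0.49 at 4 h. In S2KO it read 1.42, 0.32 and 0.49 at 1 h and -0.38, 0.27 and -0.47 at 4 h. The 1 h and 4 h arrays do not overlap in either line. The change was -0.94 ± 0.23 in S2KO (adjusted p = 0.0376) and -0.996 ± 0.23 in S2WT (adjusted p = 0.0509).

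The second Hdac5 probe, 3261, was not called in these lines; it went from a mean of 0.34 at 1 h to -0.45 at 4 h in S2WT and from 0.35 to -0.14 in S2KO. Averaged over lines, probe 2876 fell by 0.46 ± 0.11 (adjusted p = 0.00585), while probe 3261 changed by -0.20 (adjusted p = 0.513). For probe 2876, 14 of 15 arrays at 4 h lay below 0.38, the 1 h mean over lines. That count does not set arrays against the 1 h mean of their own line. With both probes averaged the difference was -0.33 (adjusted p = 0.0646). In S3KO, probe 2876 read -0.25 and 0.20 at 1 h and 0.31, 0.31 and 0.41 at 4 h, the other way from S2KO. The S2KO call was lost without S2KO 1 h replicate 1 (-0.60, adjusted p = 0.435), 4 h replicate 1 (-0.84, adjusted p = 0.206) or 4 h replicate 3 (-0.80, adjusted p = 0.292).

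Sirt1 was low in S2WT. Its 3 arrays read -0.94, -0.13 and -1.11 at 1 h, -0.38, -1.27 and -0.54 at 2 h, and -0.37, -0.26 and -0.41 at 4 h. The own 0 h arrays read 0.13, -0.30 and 0.34 and overlap with the late ones. Against the pooled 0 h arrays Sirt1 fell by 0.66 ± 0.15 (adjusted p = 0.0127), with all 9 late arrays below the pooled mean, and the call held in all 24 fits that left out 1 array. Against its own 0 h arrays the difference was the same size (-0.66, adjusted p = 0.343), and with scaled arrays the call was lost (-0.59, adjusted p = 0.0845).

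In S2KO Sirt1 was unlike this, at 0.28, 0.07 and 0.13 at 1 h. The late arrays of S2KO lay 0.66 ± 0.17 above those of S2WT when compared directly, which did not pass (adjusted p = 0.0591). The differences from the pool in the other lines were 0.10 in S3WT, -0.39 in S3KO and -0.35 in U0126, the last with 1 array at 4 h of -2.02 beside -0.16 and -0.17. Of the remaining deacetylases, Hdac1, a class I enzyme of corepressor complexes, came closest: its probe 8246 was 0.58 ± 0.15 above the pool in U0126 (adjusted p = 0.0506, 9 of 9 late arrays above), and its probe 348 read 0.25 there (adjusted p = 0.705).

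**Figure D3:**
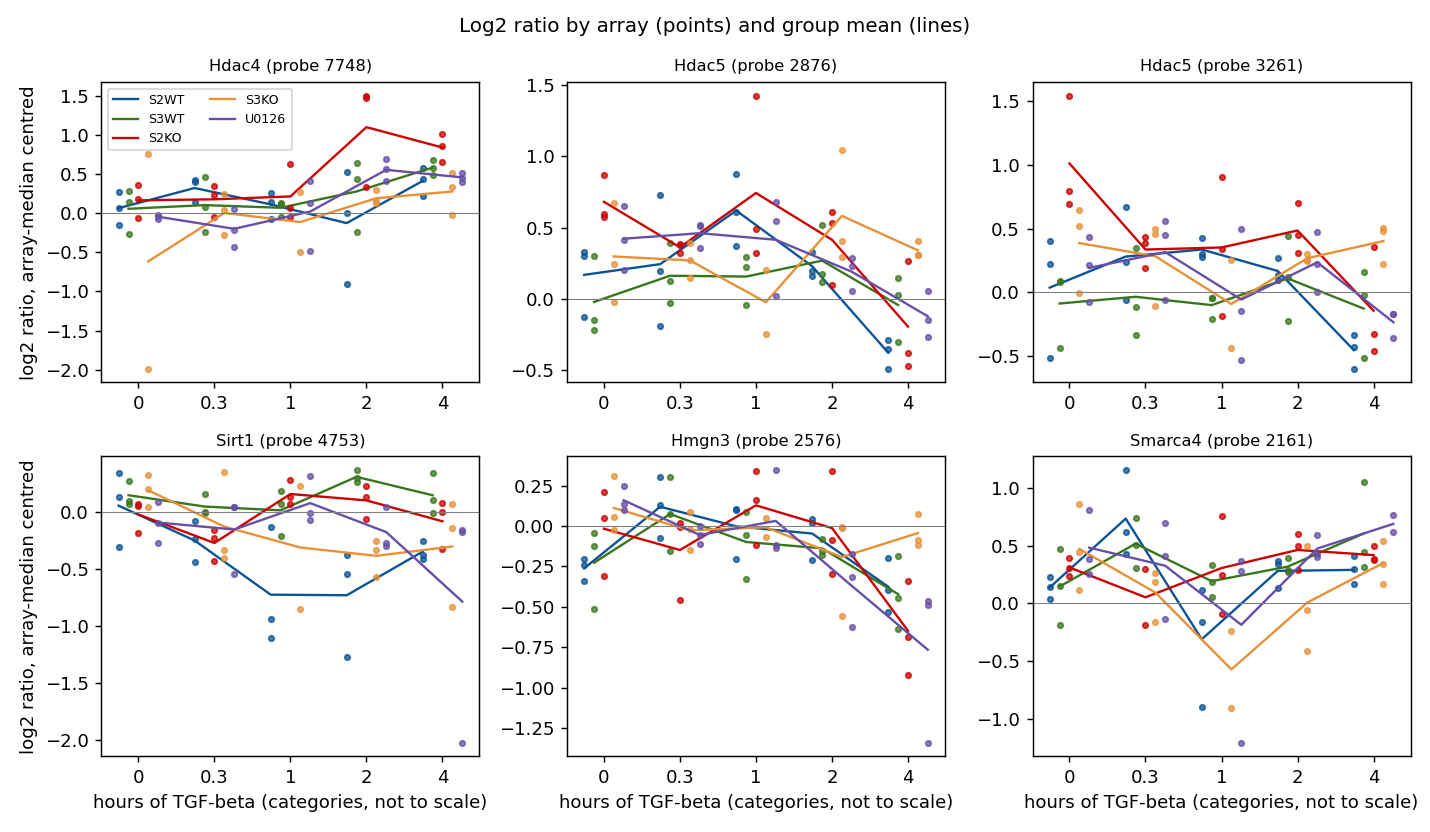
Log2 ratio, centred on the array median (y axis), against hours of TGF-β (x axis, in equal steps) for 6 probes; points are arrays, lines join group means, and colours are the 5 lines. Hdac4 stands highest in S2KO at 2 and 4 h, Sirt1 lies lowest in S2WT at 1 and 2 h, and Hmgn3 is below 0 at 4 h in every line mean.

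Hmgn3, a nucleosome-binding protein of the HMGN family that loosens chromatin, had the smallest p of all chromatin probes for the averaged change from 1 to 4 h. In S2KO it read 0.34, -0.12 and 0.16 at 1 h and -0.69, -0.34 and -0.92 at 4 h, with no overlap. It fell by 0.78 ± 0.20 there (adjusted p = 0.0429). In U0126 the change was -0.80 ± 0.20 (adjusted p = 0.0859), from 0.35, -0.12 and -0.14 to -0.49, -1.34 and -0.47.

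The 4 h arrays of Hmgn3 read -0.20, -0.40 and -0.53 in S2WT and -0.64, -0.18 and -0.45 in S3WT, and -0.09, -0.12 and 0.07 in S3KO. Averaged over the 5 lines Hmgn3 fell by 0.46 ± 0.09 (adjusted p = 0.00109), with 14 of 15 arrays at 4 h below the 1 h mean over lines. The averaged call held in all 29 fits that left out 1 array and in all 6 other alternatives. In S2WT and S3WT the 0 h means were -0.26 and -0.23. The 1 and 2 h means lay above these and the 4 h means, -0.38 and -0.42, below them, and the late response against own 0 h arrays was 0.12 and 0.01. The S2KO call alone was lost in 4 of 6 fits that left out 1 array (S2KO 1 h replicates 1 and 3, 4 h replicates 1 and 3; values from -0.76 to -0.64). The other protein of this class, Hmgb2, differed by 0.63 ± 0.20 in S3KO against own 0 h arrays (adjusted p = 0.106), with 0.208 when 0 h replicate 2 was left out and 0.985 (adjusted p = 0.00237) when replicate 3 was.

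The remodelling ATPases gave the calls in both directions. Smarca4 encodes BRG1 and Smarca2 encodes BRM, the alternative motor subunits of SWI/SNF complexes. Smarca4 probe 2161 rose by 0.58 ± 0.13 from 1 to 4 h averaged over lines (adjusted p = 0.00518), and Smarca2 fell by 0.43 ± 0.10 (adjusted p = 0.00778). All 14 measured arrays at 4 h lay above -0.11, the 1 h mean over lines, for Smarca4 probe 2161. For Smarca2 all 15 lay below its 1 h mean over lines, -0.01. The own 1 h means of S3WT and S2KO for Smarca4 lay well above the mean over lines, as given below. The second Smarca4 probe, 542, differed by 0.36 (adjusted p = 0.318).

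For Smarca4 the difference lay mostly in low 1 h arrays: averaged over lines, probe 2161 had a mean of -0.11 at 1 h, 0.47 at 4 h and 0.31 at 0 h. Probe 2161 read -0.89, 0.12 and -0.16 at 1 h in S2WT, -0.24 and -0.91 in S3KO and -1.21, 0.28 and 0.37 in U0126. In S3WT and S2KO the 1 h means were 0.19 and 0.31. At 4 h the means were 0.69 in U0126, 0.61 and 0.29 in the wild types S3WT and S2WT, and 0.42 and 0.35 in the knockouts S2KO and S3KO. The late response over lines was -0.09 (adjusted p = 0.846). Smarca2 read -0.68, -0.37 and -0.97 at 4 h in S2WT, -0.74, -0.55 and -0.18 in S2KO and -0.47, -0.86 and -0.30 in U0126, against 1 h means of -0.11, -0.02 and 0.06. The falls in the other lines were smaller, to -0.225, -0.22 and -0.225 in S3WT from a 1 h mean of -0.09, and to -0.16, -0.215 and -0.46 in S3KO from 0.09. Uncentred arrays ended the Smarca2 call (-0.38, adjusted p = 0.0658).

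Chd6, a remodeller of the CHD family, gave the largest called change. Probe 7726 read -1.05, -0.80 and -0.84 at 1 h in S2KO and -6.30, -1.05 and -5.21 at 4 h, a fall of 3.29 ± 0.76 (adjusted p = 0.0263). The 1 h arrays and the second 4 h array nearly meet, and the value rests on the other 4 h arrays: without 4 h replicate 1 it was -2.23 (adjusted p = 0.337) and without 4 h replicate 3 -2.78 (adjusted p = 0.242). It was also lost without 1 h replicate 1 (-3.37, adjusted p = 0.0787) or replicate 3 (-3.26, adjusted p = 0.0705). The second Chd6 probe, 5660, read -1.24, -0.31 and -0.45 at 4 h after -0.06, -0.72 and 0.31 at 1 h, a difference of -0.51 that was not called. Averaged over lines, the probes changed by -1.14 (adjusted p = 0.0766) and -0.46 (adjusted p = 0.117). Each had 14 of 15 arrays at 4 h below its 1 h mean over lines.

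**Figure D4:**
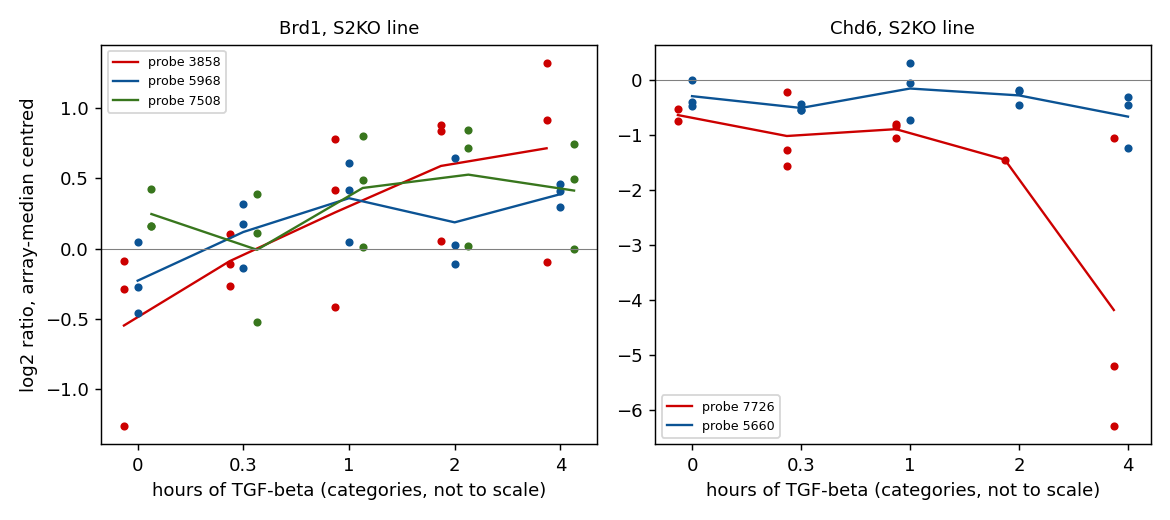
Log2 ratio, centred on the array median (y axis), against hours of TGF-β (x axis, in equal steps) in the S2KO line for the 3 probes of Brd1 (left) and the 2 probes of Chd6 (right); points are arrays and lines join group means. Chd6 probe 7726 falls to -6.30 and -5.21 on 2 arrays at 4 h while probe 5660 stays above -1.3, and Brd1 probe 3858 starts at a mean of -0.55.

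Among the readers, Brd1, a bromodomain scaffold of histone acetyltransferase complexes, was called in S2KO. Probe 3858 read -0.09, -0.29 and -1.27 at 0 h and 1.33, -0.10 and 0.92 at 4 h. The groups overlap, by the second array at 4 h. The late response against own 0 h arrays was 1.07 ± 0.26 (adjusted p = 0.043). Probe 5968 gave 0.54 (adjusted p = 0.456) and probe 7508 gave 0.21 (adjusted p = 0.954), and the average of the 3 probes gave 0.61 (adjusted p = 0.13). Without S2KO 0 h replicate 3 the value for probe 3858 was 0.71 (adjusted p = 0.382), and the call was also lost without replicate 1 or 3 at 1, 2 or 4 h, 7 of 12 fits in all (0.71 to 1.04). Uncentred (1.12, adjusted p = 0.0603) or scaled arrays (1.04, adjusted p = 0.0653) ended it too, as did fitting S2KO arrays alone (adjusted p = 0.915).

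Cbx7, a chromodomain subunit of Polycomb repressive complex 1 that binds methylated histone H3, fell by 0.77 ± 0.21 from 1 to 4 h averaged over lines (adjusted p = 0.0276). All 15 arrays at 4 h lay below the 1 h mean over lines, 0.24. In the wild types they read 0.12, -0.48 and -0.91 (S2WT) and -0.67, -0.78 and -0.36 (S3WT). In the knockouts they read -0.69, -0.45 and -1.49 (S2KO) and -0.07, -0.23 and -0.31 (S3KO), and in U0126 -0.26, -0.77 and -0.74. The 1 h array of S2WT replicate 3 read 1.72, and without it the value was -0.66 (adjusted p = 0.0695). The call was also lost without S2KO 4 h replicate 3 (-0.71), S2WT 4 h replicate 3 (-0.73) or S3KO 1 h replicate 2 (-0.74), and with uncentred arrays (-0.72, adjusted p = 0.0588).

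The writers and erasers of histone methylation gave no call in any of the 24 comparisons, nor did the acetyltransferases, the DNA methylation proteins or the histones. For the late response averaged over lines, the median was -0.02 over 14 methyltransferase probes, 0.00 over 7 demethylase probes, 0.00 over 4 acetyltransferase probes and -0.12 over 4 histone probes, of which limma called 0 and none had an unadjusted p under 0.05. The lowest p of these classes there belonged to Mbd2 probe 2691, a methyl-CpG binding repressor (0.23 ± 0.12, adjusted p = 0.49), H2aj, a variant of histone H2A (-0.31 ± 0.17, adjusted p = 0.549), Kdm3b, a demethylase of H3 lysine 9 (0.14 ± 0.08, adjusted p = 0.583), Kat7, the acetyltransferase HBO1 (0.43 ± 0.26, adjusted p = 0.59), and Kmt5b, a methyltransferase of H4 lysine 20 (-0.37 ± 0.31, adjusted p = 0.743). In S3KO against own 0 h arrays, Mbd2 probe 2691 differed by 0.83 ± 0.26 (adjusted p = 0.0923) and Kmt5b by -2.01 ± 0.67 (adjusted p = 0.127). Both values turn on single 0 h arrays. Mbd2 read -2.57, -0.07 and -0.145 at 0 h, and the difference was 0.0118 without replicate 1 and 1.26 without replicate 2. Kmt5b read 0.54, 5.68 and -0.72, and the difference was -0.0863 without replicate 2 and -3.29 without replicate 3.

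The lines did not differ by a called chromatin gene. In the difference of late responses, limma called 0 of 79 for S2KO minus S2WT (0.0386% of all probes called), 0 of 66 for S3KO minus S3WT (0.126%) and 0 of 78 for U0126 minus S2WT (0.0252%). At an unadjusted p under 0.05 there were 9 (11.4%, against 7.13% of all probes), 4 (6.06%, against 9.05%) and 8 (10.3%, against 6.11%). Compared directly, late arrays gave 0 of 81 for S2KO minus S2WT (0.326% of all called), 0 of 66 for S3KO minus S3WT (0%) and 0 of 81 for U0126 minus S2WT (0%). Here the counts at an unadjusted p under 0.05 were 9 (11.1%, against 10.4% of all), 4 (6.06%, against 5.95%) and 5 (6.17%, against 4.88%). The smallest adjusted p among these was that of Sirt1 in S2KO minus S2WT, given above. In the difference of late responses for the same pair, Kat2a, the acetyltransferase GCN5, came first at -0.65 ± 0.21 (adjusted p = 0.425).

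A second list of chromatin genes outside the families above had 50 of its 108 genes on the arrays, with 69 probes. Against pooled 0 h arrays in S2KO, 2 of 62 probes were called higher, for Jarid2 (0.71) and Phc2 (0.46), both of Polycomb complexes. Another 1 was called lower, for the cohesin subunit Stag1 (-0.91), where 2.49% of all probes were called. The Jarid2 and Phc2 calls held in all 24 fits that left out 1 array, while that of Stag1 was lost in 10 of them, with the smallest value, -0.574, without S2KO 1 h replicate 1. Against own 0 h arrays in S3KO, 2 of 59 were called higher, for Phc1 (1.00) and Baz2a (0.79). Another 1 was called lower, for the chromatin assembly factor Chaf1b (-0.95), where 1.53% of all probes were called. The values for Phc1 and Chaf1b turn on single S3KO 0 h arrays: Phc1 was 0.644 (adjusted p = 0.493) without 0 h replicate 1, Chaf1b was -0.172 (adjusted p = 0.999) without 0 h replicate 2, and leaving out 1 array ended the call in 8 of 11 fits for Phc1, 8 of 11 for Chaf1b and 7 of 9 for Baz2a. From 1 to 4 h averaged over lines, 1 of 59 was called higher, for Gatad2a (0.43 ± 0.10, adjusted p = 0.00785), a subunit of the NuRD complex, to which Hdac1 also belongs. That share, 1 of 59, is near the 1.63% of all probes called higher. The Gatad2a call was lost without S3KO 1 h replicate 2 (0.33, adjusted p = 0.0913). Of 17 probes for S phase and proliferation genes, 14 could be tested in that comparison. There 1 was called higher, for the nuclease Fen1 (0.42 ± 0.11, adjusted p = 0.0162), against 1.63% of all probes. In S2KO against the pool 1 of 14 tested was called lower, for the replication licensing factor Cdc6 (-2.09), where 2.49% of all probes were called. None of the probes for fibroblast (4 genes), epithelial (2), leukocyte (3) or endothelial (2) markers was called in any comparison, though not all could be tested. Of 2 epithelial probes, 0 could be tested in the late response or the change from 1 to 4 h averaged over lines. The part of these markers in the results was not tested.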

How the data were processed

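The authors deposited log2 ratios of the channels of each array. Not given in the sources used here are the dyes, scanner, background correction and normalization. Values at the log2 of a ratio of 100000 (1344 of them) were read as an empty denominator and, with 41670 blank cells, set to missing. An array gave 7688 to 8713 values. Channel brightness was not analysed here. Precision depends on how many arrays measured a probe and on the spread of the probe between arrays. Over chromatin probes the residual SD ran from 0.178 for Kat2a to 2.1 for Ezh1 probe 904.

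Arrays were centred on their median. Group means of the 25 groups were fitted to all 74 arrays in R 4.3.3, with variances moderated by squeezeVar of limma 3.58.1, followed by Benjamini-Hochberg adjustment over all probes tested; called means an adjusted p of at most 0.05. A probe was tested when at least 2 arrays measured it in each group. Named genes were all called ones per comparison (at most 10), the 3 with the smallest p where none was called, and the leading member of each class. The members, lists and comparisons were chosen with earlier results of these data known, and 1 of the 24 comparisons was added after the data were seen. The fitting code was tested on simulated data. Alternatives covered centring, scaling, missing values, probes of a gene, lines in the fit, the 0 h pool, the replicate number and each array.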

Additional observations from a re-analysis of the deposited data

Results flagged for a closer look

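A difference between time points, 4 h against 1 h, passed the adjusted threshold for 8 results. In S2KO they were Chd6 probe 7726 (-3.29), Hdac5 probe 2876 (-0.936) and Hmgn3 (-0.777). Averaged over the lines, in the comparison added after the data were seen, they were Cbx7 (-0.774), Smarca4 probe 2161 (0.584), Hmgn3 (-0.461), Hdac5 probe 2876 (-0.461) and Smarca2 (-0.427). For Chd6, Hdac5 and Smarca4 a second probe of the gene differed in the same direction by less and was not called. Single arrays were not tested as outliers within their groups of 2 or 3.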

How the results depend on the processing

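Numbers of chromatin probes called depended on the processing, and the causes were not tested. Counts over all probes tested are in brackets. With arrays left uncentred they were 0 of 81 for S2KO against own 0 h (12 of 8151). Against the pool they were 3 of 75 for S2WT (295 of 7555) and 0 of 75 for S2KO (128 of 7444). From 1 to 4 h they were 1 of 84 for S2KO (209 of 8500) and 1 of 86 for U0126 (7 of 8651). The averaged change gave 3 of 68 (185 of 7249). The direct comparison of S2KO with S2WT gave 1 of 81 (22 of 7987). With arrays scaled to a common spread they were 0 of 81 for S2KO against own 0 h (7 of 8151). Against the pool they were 0 of 75 for S2WT (27 of 7555) and 0 of 75 for S2KO (64 of 7444). For U0126 against the pool the count was 1 of 75 (82 of 7543). From 1 to 4 h they were 1 of 86 for S3WT (52 of 8684) and 0 of 84 for S2KO (4 of 8500). With only probes measured on all arrays, 23 chromatin probes and 2244 probes in all could be tested. Called were 3 for S2KO against own 0 h (36 of all) and 1 for U0126 against the pool (45 of all). From 1 to 4 h they were 1 for S2WT (17), 1 for U0126 (22) and 3 averaged (181). The called probes of Smarca4 and Cbx7 are not among these 23. With probes of a gene averaged they were 0 of 65 for S2KO against own 0 h (17 of 6836) and 2 of 60 against the pool (153 of 6316). With only the compared line in the fit they were 0 for S2KO against own 0 h and 0 from 1 to 4 h, where 0 of all probes were called. With late arrays tested against 0 and no 0 h arrays, so that each probe's background ratio stays in, they were 14 of 84 in S2WT, 4 of 84 in S3WT, 16 of 83 in S2KO and 8 of 84 in U0126, where 1960 of 8470, 733 of 8506, 2214 of 8315 and 1214 of 8504 of all probes were called. Of 420 values for named genes under settings other than leaving out an array, 381 kept direction and side of the threshold.

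Values turned sign for named genes that were not called. Without the 0 h arrays these were Kmt2c (0.111) and Kmt2b (0.129) in S3WT and Mbd2 probe 2691 (-0.0967) and Hmgb2 (-0.0829) in S3KO; without S3KO 0 h arrays in the pool, Kmt5b averaged (0.0524). With S3KO 1 h replicate 2 turned in sign, these were Brd1 probe 5968 in S3KO against the pool (-0.12) and from 1 to 4 h (0.965), and Kmt2e probe 7662 from 1 to 4 h (-0.179). When 1 array was left out, Kmt2c in S3WT ranged from -0.931 to 0.0592, Kmt5b averaged from -0.624 to 0.016 and Brd1 probe 5968 in S3KO from 1 to 4 h from -1.77 to 0.146.

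Leaving out each array in turn gave ranges of called chromatin probes, with those over all probes in brackets. Against own 0 h they were 0 to 2 for S2KO (16 to 92) and 0 to 4 for S3KO (45 to 418). Against the pool they were 1 to 2 for S2WT (55 to 123) and 0 to 2 for S2KO (117 to 325). They were 0 to 1 for S3KO (0 to 25) and 0 to 2 for U0126 (23 to 104). The response averaged over lines gave 0 to 1 (55 to 98). From 1 to 4 h the ranges were 0 to 4 for S2WT (0 to 66) and 0 to 6 for S2KO (18 to 208). They were 0 to 2 for S3KO (7 to 95), 0 to 1 for U0126 (11 to 43) and 4 to 6 averaged (119 to 264). For S3KO minus S3WT they were 0 to 1 by difference (0 to 189) and 0 to 1 directly (0 to 39). For S2KO minus S2WT directly they were 0 to 2 (10 to 71). The remaining comparisons stayed at 0.

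Replicate numbers were not taken to pair the arrays in the main fit, which leaves any shift shared by a replicate number unmodelled. At most 20 of 30 same-numbered pairs of a line (S2KO) had a correlation of deviations over 0.1, a cutoff that does not settle pairing. The median correlation of same-numbered pairs was above that of other pairs in all 5 lines, by line from 0.0134 against -0.0156 (U0126) to 0.172 against -0.0989 (S2KO). With the replicate number as a block, the count was 1 for U0126 from 1 to 4 h, and the calls in S2KO for Brd1 (adjusted p = 0.00904), Chd6 (0.0157), Hdac5 (0.0469) and Hmgn3 (0.022) stood. Comparisons with the pooled 0 h arrays or between lines directly could not be fitted with it.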

Other observations

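Brd2, a bromodomain protein that binds acetylated histones, lay above its 1 h mean over lines on all 15 arrays at 4 h (0.37 ± 0.16, adjusted p = 0.255). Brd1 probe 7508 did so too (0.45 ± 0.16, adjusted p = 0.131). Cbx5, the heterochromatin protein HP1 alpha, lay below its 1 h mean over lines on all 15 (-0.19 ± 0.13, adjusted p = 0.577). These genes were picked after their values were seen, and none passed the test. The class I deacetylase Hdac2 lay above its 1 h mean over lines on 14 of 15 arrays (0.23 ± 0.11, adjusted p = 0.32). The class IIa deacetylase Hdac7 lay below its 1 h mean over lines on 12 of 15 (-0.22 ± 0.11, adjusted p = 0.361).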
